A study of Homo sapiens with 16 samples.

Results

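The genes described here are 43 antioxidant and NRF2 pathway genes chosen by name: superoxide dismutases, peroxidases, the glutathione and thioredoxin systems, NRF2 with its regulators, and other genes linked to NRF2. Of the 43, 42 were measured among 20166 gene symbols, and SRXN1 has no row under that symbol. They were measured in RWPE1, an established, immortalized line of human prostate epithelial cells. Poly-A RNA was sequenced in 6 libraries labelled control vector (an altered pTRIPZ vector with no insert), 6 libraries over-expressing a wild-type construct, and 4 libraries over-expressing its T164A mutant. The comparisons ask how the wild-type construct and its mutant change expression relative to the vector. The labels do not say whether the engineered cells were clones or pools, whether the libraries of a group came from separate cultures, or how the construct was induced.

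Oxygen metabolism leaves superoxide, which superoxide dismutases turn into hydrogen peroxide. Catalase, glutathione peroxidases and peroxiredoxins remove the peroxide. The glutathione peroxidases and peroxiredoxins draw their electrons from glutathione or thioredoxin, which reductases recharge with NADPH. The transcription factor NRF2, encoded by NFE2L2, pairs with small MAF proteins at antioxidant response elements near many of these genes. KEAP1 holds NRF2 for degradation until oxidants or electrophiles modify it, and BACH1 competes for the same elements. NRF2 is controlled largely as a protein, so a transcript level of NFE2L2 is not a measure of NRF2 activity.

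Values are the authors' log2 expression values, made by a transformation that is not given. A difference of 1 is read here as a 2-fold difference, and every fold below rests on that reading. Whether the reading holds at every level of expression is not known, so the folds are nominal. Group values are means ± SD with n libraries, and differences between groups come with the standard error (SE) and the adjusted p of limma (Benjamini-Hochberg over 20166 symbols). "Rose" and "fell" are used for an adjusted p below 0.05. Estimated depth was 12300000 to 19200000 reads per library, and a floor of 3 reads lies at 2.30 on this scale on average (counting error only). Values are not adjusted for gene length, so levels are compared between libraries and not between genes.

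Several libraries stood apart, and marker genes of cell types moved with the groups. Wild-type replicate 14 was the lowest of its group for 16 of the 17 members that rose there. T164A replicate 93 was the lowest of its group for 18 of 42 members and the highest for 14. The summed level of 14 prostate luminal markers was 10.61 to 11.39 in the vector libraries and 15.80 to 16.83 in wild type, with replicate 14 at 15.80. It was 11.96 to 12.04 in the libraries labelled T164A, where KLK2, KLK3, TMPRSS2, HPN and TRPM8 lay below the floor. All 14 luminal markers rose in wild type. Basal markers, which RWPE1 cells carry, summed to 18.15 to 18.40 in vector, 17.41 to 17.86 in wild type and 17.02 to 17.23 in the libraries labelled T164A, and all 12 were above the floor in every group. The sum over 12 squamous markers was 16.23 to 16.34, 15.46 to 15.95 and 9.71 to 9.85 in the same order. For 14 mesenchymal markers it was 12.49 to 12.85, 12.47 to 12.72 and 14.39 to 14.51, with COL1A2 and DCN below the floor in all groups. Leukocyte and endothelial markers summed to 9.37 to 9.90, 9.02 to 9.17 and 8.20 to 8.74, with CD3E and CDH5 below the floor in every group. An effect of the construct, a change in the state of the cells and cells of another type in the libraries cannot be told apart, and neither can fewer cells of a type and less RNA per cell. The part of these shifts in the results below was not tested.

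In wild type against vector, 17 of the 42 measured members rose (40.5%) and 8 fell (19%). Over all symbols, 21% rose and 24.5% fell. Since 39 of the 42 members have a mean of 6 or more over the libraries, the 11167 symbols above that mean are the nearer background, and among them 27.6% rose and 38.7% fell. The median difference of the members was 0.09, against -0.05 over all symbols. By 2-fold or more, 6 members rose and 0 fell. Of symbols with a mean of 6 or more, 5.35% differed by more than 2-fold in either direction, called or not. In 23 members the groups of libraries did not overlap. The share of all symbols without overlap was not computed, here or for the comparisons below, so such counts have no background. The largest rises were those of GSTM3, PRDX2, TXNRD2, CAT and SOD1, beside SOD3, which came up from below the floor.

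In the libraries labelled T164A against vector, 25 members rose (59.5%) and 10 fell (23.8%), against 37.1% and 27.2% of all symbols. Among symbols with a mean of 6 or more the shares were 47.2% and 36.6%. The median difference of the members was 0.33, against 0.11 over all symbols. By 2-fold or more, 15 members rose and 4 fell, while 30.8% of symbols with a mean of 6 or more differed by more than that in either direction. In 30 members the groups did not overlap. GSTM3, SOD1, PRDX2, TXN2 and HMOX1 rose most, and TXNIP, GPX2, NFE2L2 and FTH1 fell most. Quantile normalization would shift the median difference of well-expressed symbols by -0.17 in this comparison, by -0.02 in wild type against vector and by 0.14 in wild type against T164A, and changes of that size are read with this in mind.

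Wild type and the libraries labelled T164A also differed from each other. In wild type, 12 members were higher (28.6%) and 22 lower (52.4%), with a median difference of -0.32 (-0.08 over all symbols). Of all symbols, 26.7% were higher and 35.1% lower in wild type, and of those with a mean of 6 or more, 33.8% and 46.1%. The member shares lie near this last background. The order vector, wild type, T164A from low to high held for the means of 17 members. In 10 of these (SOD1, GPX4, PRDX1, PRDX2, PRDX3, PRDX4, PRDX6, TXN2, GCLM and GSTM3) neighbouring groups did not overlap. The opposite order with no overlap was seen in GPX2, TXNIP and NFE2L2. The share of all symbols in either order was not computed, so these counts have no background and are not a trait of the members. Both comparisons against vector use the same 6 vector libraries, so a shared direction is not independent evidence.

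**Figure D1:**
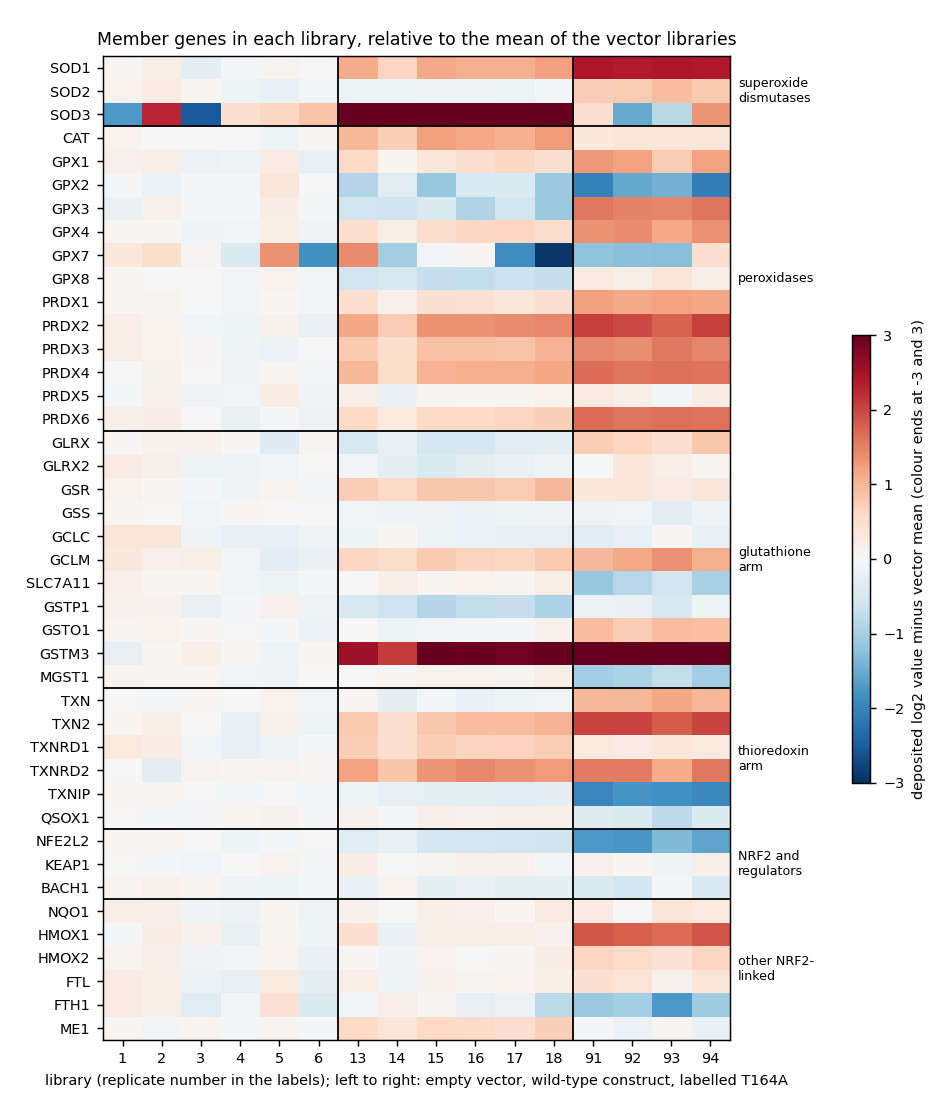
Deposited log2 value minus the mean of the 6 vector libraries for 42 member genes (rows, grouped by role) in 16 libraries (columns, 3 groups separated by vertical lines); colours end at -3 and 3. Most peroxidases are red in wild type and darker red in the libraries labelled T164A, while TXNIP and NFE2L2 turn blue; SOD3 and GPX7 are below the floor of 2.30 in at least 2 groups.

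The arms were compared by their counts and medians, and the difference between arms was not tested. In wild type, 8 of 13 peroxidases rose and 3 fell (median difference 0.43), 3 of 11 glutathione genes rose and 3 fell (median -0.03), and 3 of 6 thioredoxin genes rose and 1 fell (median 0.41). In the libraries labelled T164A, 10 peroxidases rose and 1 fell (median 1.19), 5 glutathione genes rose and 4 fell (median 0.15), and 4 thioredoxin genes rose and 2 fell (median 0.66). As shares, 61.5% of peroxidases rose and 23.1% fell in wild type, against 27.6% and 38.7% of symbols with a mean of 6 or more, and 76.9% rose and 7.69% fell in T164A, against 47.2% and 36.6%. The shares of the glutathione arm in T164A, 45.5% and 36.4%, were near that background, and in wild type they were 27.3% each. The thioredoxin arm had 50% and 16.7% in wild type and 66.7% and 33.3% in T164A. By place in the cell, 3 of 6 mitochondrial members rose in wild type (50%) and 4 in T164A (66.7%), with 1 and 0 falls. Of 6 members of the secretory pathway, 2 rose and 2 fell in wild type (33.3% each), and 3 rose (50%) and 1 fell (16.7%) in T164A, where the share that rose is near the 47.2% of the background.

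The transcript of NRF2 itself fell in both groups. In vector NFE2L2 lay between 11.71 and 11.89 (median 11.85), and in wild type between 11.22 and 11.61 (median 11.33). The libraries labelled T164A were at 10.10, 10.08, 10.51 and 10.24. No library of one group reached the range of another, and replicates 14 and 93 were the ones nearest to vector. The fall was 0.46 in wild type (difference -0.46, SE 0.07, limma adjusted p = 5.28e-06) and larger in T164A (-1.60, SE 0.08, limma adjusted p = 1.34e-15). Wild type exceeded T164A by 1.14 (SE 0.08, limma adjusted p = 1.75e-12). When libraries of a group that lie close together were merged into 1 mean, the wild-type difference was -0.36 (limma adjusted p = 0.0524). That alternative, named below as close libraries averaged, leaves 3 vector values and 2 in each other group, with wild-type replicate 14 and T164A replicate 93 each standing as 1 of the 2. Exons of NFE2L2 overlap those of AGPS on the other strand over 54 of 4531 bases, and whether counting used strand is not stated.

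KEAP1, the adaptor that presents NRF2 to a ubiquitin ligase, ranged from 10.03 to 10.23 in vector (median 10.11) and from 10.09 to 10.34 in wild type (median 10.21). T164A replicates 91 to 94 were at 10.28, 10.17, 10.01 and 10.30. The 3 groups overlapped, and in this fit neither difference from vector passed the test (0.09 and 0.07, both with an SE near the difference: 0.06 and 0.07; limma adjusted p = 0.248 and 0.345). BACH1, the repressor that competes with NRF2, was at 9.87 to 10.13 in vector (median 10.01) and 9.73 to 10.11 in wild type (median 9.77). Values in T164A were 9.60, 9.45, 9.96 and 9.55, so replicate 93 reached the vector range. BACH1 fell in T164A (-0.37, SE 0.09, limma adjusted p = 0.00059), though not with close libraries averaged (-0.24, limma adjusted p = 0.149). Its wild-type difference was -0.19 (SE 0.08, limma adjusted p = 0.0527), and it passed the test when wild-type replicate 14 (-0.25), vector replicate 4 or 5 (-0.21 each) or T164A replicate 92 or 93 (-0.19 each) was left out.

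Differences between 2 genes within a library are free of any single scaling factor per library, though not of quantile normalization, and 6 such pairs were tested in 18 exact two-sided permutation tests. KEAP1 minus NFE2L2 rose by 0.55 in wild type (exact permutation p = 0.00216, adjusted 0.00974) and by 1.67 in T164A (p = 0.00952, adjusted 0.0107). BACH1 minus NFE2L2 rose by 0.27 and 1.23, with the same p-values, which are the smallest that these group sizes gave here. In both pairs every library of a group lay outside the range of the other groups. KEAP1 itself differed from vector by only 0.09 and 0.07, so its pair largely restates the fall of NFE2L2 and is not separate evidence. The pairs were chosen with earlier results of these data known.

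Promoters of the members were searched for the core of the antioxidant response element, TGACNNNGC, on both strands, because NRF2 binds it together with small MAF proteins. RefSeq windows (GRCh38.p14) from 250 bases before to 50 bases after a gene start were at hand for 33 of the 42 measured members, in 52 windows. The core occurred in 9 of the 52 windows, in 8 genes: GCLM, GPX2, GSTO1, GSTP1, KEAP1, ME1, MGST1 and TXNRD1. Of all 35116 windows of this length, 13.3% hold it. The letters TGACTCA are the AP-1 site that overlaps the core where GC follows. They occurred in 3 of the 52 windows (BACH1, GSTP1 and ME1), against 4.95% of all windows. The joint form TGACTCAGC occurred in 2 of the 52 (GSTP1 and ME1), against 0.561% of all windows. SOD1, PRDX1, PRDX6, TXN2, GSR, GSS, HMOX1, SLC7A11 and FTH1 had no window in the table. A match of letters is a description and not a binding site.

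The upstream part of 4 windows is shown because these genes carry the core upstream of their start and yet moved in different directions, followed by shorter stretches from GSTO1 and TXNRD1. Sequences run 5′ to 3′ on the gene's strand, and capitals mark the core on whichever strand it lies.
GCLM, chr1:93909431-93909680, minus strand: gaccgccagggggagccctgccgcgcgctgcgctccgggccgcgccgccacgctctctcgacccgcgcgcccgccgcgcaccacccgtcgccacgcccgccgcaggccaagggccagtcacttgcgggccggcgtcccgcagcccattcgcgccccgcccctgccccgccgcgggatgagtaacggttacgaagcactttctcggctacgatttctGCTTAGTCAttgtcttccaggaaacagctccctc
ME1, chr6:83431052-83431301, minus strand: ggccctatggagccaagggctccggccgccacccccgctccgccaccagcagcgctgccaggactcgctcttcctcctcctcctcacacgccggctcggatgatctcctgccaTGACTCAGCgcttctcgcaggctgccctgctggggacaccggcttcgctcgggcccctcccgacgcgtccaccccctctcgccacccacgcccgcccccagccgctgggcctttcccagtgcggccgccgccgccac
GSTP1, chr11:67583562-67583811, plus strand: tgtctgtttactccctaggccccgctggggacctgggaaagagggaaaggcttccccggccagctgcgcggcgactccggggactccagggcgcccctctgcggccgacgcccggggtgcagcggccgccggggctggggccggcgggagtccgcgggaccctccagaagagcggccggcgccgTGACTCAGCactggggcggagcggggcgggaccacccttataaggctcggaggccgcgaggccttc
GPX2, chr14:64942746-64942995, minus strand: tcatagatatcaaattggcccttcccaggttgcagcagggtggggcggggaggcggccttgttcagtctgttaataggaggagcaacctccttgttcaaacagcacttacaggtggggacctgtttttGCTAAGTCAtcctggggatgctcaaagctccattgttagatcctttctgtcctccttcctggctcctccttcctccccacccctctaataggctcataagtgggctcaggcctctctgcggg
GSTO1, chr10:104254646-104254694, plus strand: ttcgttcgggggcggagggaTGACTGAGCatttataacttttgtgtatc
GSTO1, chr10:104254711-104254759, plus strand: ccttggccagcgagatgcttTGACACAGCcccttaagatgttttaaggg
TXNRD1, chr12:104215660-104215708, plus strand: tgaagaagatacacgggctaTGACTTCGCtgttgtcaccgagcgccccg
TXNRD1, chr12:104286910-104286958, plus strand: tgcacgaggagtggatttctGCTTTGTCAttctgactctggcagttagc
GCLM carries the core at position -34 relative to the gene start and rose in both groups, while ME1 carries it at -137 and rose in wild type. GSTP1 at -66 and GPX2 at -122 fell in both. GSTO1, with matches at -226 and -161, rose in T164A, and TXNRD1, with 1 match in each of 2 start windows (-99 and -102), rose in both. KEAP1, with matches at -54 and -31 that are not printed, passed the test in neither comparison with vector in this fit. The members holding this core thus included rises, falls and a gene not called in each comparison.

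Among the superoxide dismutases, the cytosolic copper-zinc enzyme SOD1 rose in both groups. Its values were 9.27 to 9.74 in vector (median 9.58) and 10.20 to 10.78 in wild type (median 10.64). In T164A it was at 11.98, 11.93, 11.97 and 11.96, and the 3 groups did not overlap. SOD1 was 2.06-fold higher in wild type (1.04, SE 0.08, limma adjusted p = 4.81e-11) and 5.31-fold higher in T164A (2.41, SE 0.09, limma adjusted p = 4.17e-18). The mitochondrial manganese enzyme SOD2 rose in T164A by 0.80 (SE 0.07), with 10.27 to 10.72 in vector and 11.21 to 11.39 in T164A. In wild type its difference of -0.12 did not pass the test (limma adjusted p = 0.125), except without vector replicate 5 (-0.16, limma adjusted p = 0.0371). Most exon bases of SOD2 are its own, but 1106 of 17721 overlap ACAT2 and 139 overlap WTAP on the other strand.

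The secreted enzyme SOD3 showed another pattern. It was at -2.29 to 2.51 in vector (median 0.78), where the group mean is below the floor, and at 3.98 to 6.12 in wild type (median 5.42). In the libraries labelled T164A it was at 0.74, -1.29, -0.60 and 1.56, all below the floor. The mean of SOD3 in wild type lay 2.94 (log2) above the extrapolated floor, and the means of vector and T164A lay below it. The fitted differences of wild type from vector and from T164A passed the test (limma adjusted p = 4.51e-07 and 6.5e-07). No fold is given between vector and T164A. All 6 wild-type libraries were above the vector libraries.

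Catalase was the one peroxidase whose mean was highest in wild type. CAT was at 9.09 to 9.35 in vector (median 9.26) and 9.96 to 10.52 in wild type (median 10.35). In the libraries labelled T164A it was at 9.56, 9.60, 9.60 and 9.61, above every vector library and below every wild-type one. It rose 2.1-fold in wild type (1.07, SE 0.07, limma adjusted p = 4.9e-12) and 1.27-fold in T164A (0.35, SE 0.08, limma adjusted p = 0.000435), and wild type exceeded T164A by 0.72 (SE 0.08).

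Of the 6 peroxiredoxins, which reduce peroxides with thioredoxin or glutathione, 5 rose in both groups and each was higher in T164A than in wild type. PRDX2 changed most. It was at 9.55 to 9.98 in vector (median 9.80) and 10.54 to 11.22 in wild type (median 11.13), and at 11.85, 11.76, 11.54 and 11.84 in the libraries labelled T164A. No groups overlapped, and the rises were 2.37-fold (1.24, SE 0.09, limma adjusted p = 4.91e-11) and 3.91-fold (1.97, SE 0.11, limma adjusted p = 7.86e-15). PRDX4, the peroxiredoxin of the endoplasmic reticulum, rose by 0.98 and 1.65, and mitochondrial PRDX3 by 0.82 and 1.47. PRDX6, which uses glutathione, rose by 0.57 and 1.64, and PRDX1 by 0.40 and 1.19. The PRDX1 rise in wild type was lost with close libraries averaged (0.28, limma adjusted p = 0.106), and 379 of the 1252 exon bases of PRDX1 overlap MMACHC on the other strand. PRDX5, found in mitochondria, peroxisomes and cytosol, was the exception. Its means were 11.23 ± 0.14 (n = 6), 11.28 ± 0.13 (n = 6) and 11.39 ± 0.15 (n = 4), and neither difference from vector passed the test (0.04 and 0.16; limma adjusted p = 0.653 and 0.0838). In T164A it did so without vector replicate 5 (0.20) or T164A replicate 93 (0.23).

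The glutathione peroxidases split. GPX1, the common cytosolic selenoenzyme, rose by 0.43 in wild type (SE 0.10) and by 1.12 in T164A (SE 0.11). GPX4, which reduces lipid peroxides in membranes, rose by 0.50 (SE 0.07) and 1.32 (SE 0.08). With close libraries averaged, neither wild-type rise passed the test (0.21 and 0.33; limma adjusted p = 0.405 and 0.0896), and the GPX1 rise was also lost without vector replicates 3, 4 and 6 (0.24, limma adjusted p = 0.0985). GPX3, the secreted form, moved in opposite directions. It was at 6.61 to 7.03 in vector (median 6.77) and lower in wild type, at 5.71 to 6.37 (median 6.24). All T164A libraries were above the others, at 8.39, 8.30, 8.27 and 8.43. GPX3 fell by 0.69 in wild type (difference -0.69, SE 0.11, limma adjusted p = 1.53e-05) and rose by 1.53 in T164A (SE 0.13, limma adjusted p = 4.14e-11), which left wild type below T164A (difference -2.22, SE 0.13, limma adjusted p = 3.86e-14). GPX8 of the endoplasmic reticulum likewise fell in wild type (-0.64, SE 0.06) and rose in T164A (0.26, SE 0.06), the latter not with close libraries averaged (0.27, limma adjusted p = 0.0537). GPX2, an epithelial form best known from the gut and a known NRF2 target, fell in both (-0.72, SE 0.20, and -1.77, SE 0.23). Its levels of 5.27 to 5.80 in vector and 3.37 to 4.01 in T164A are low, and its wild-type fall was lost with close libraries averaged (-0.63, limma adjusted p = 0.182). GPX7 lay below the floor on average in each of the 3 groups, so no fold is given.

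**Figure D2:**
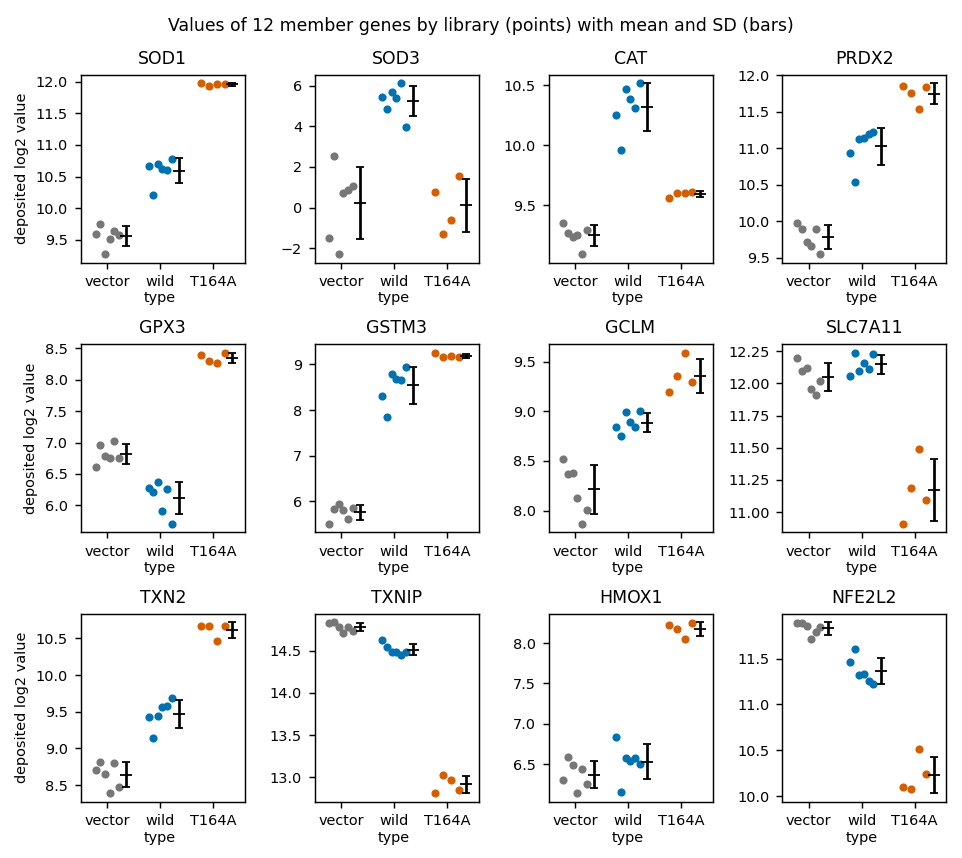
Deposited log2 values of 12 member genes, 1 point per library, with bars for mean and SD of the group (6 vector, 6 wild-type and 4 T164A libraries; axes do not start at 0). SOD1, PRDX2, TXN2 and GSTM3 step up from vector to wild type to T164A, NFE2L2 and TXNIP step down, GPX3 falls in wild type and rises in T164A, and SOD3 is above the floor of 2.30 in wild type.

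In the glutathione arm the largest change of any member with all groups above the floor was that of GSTM3, a mu-class glutathione transferase. It was at 5.51 to 5.95 in vector (median 5.81) and 7.85 to 8.94 in wild type (median 8.68). The libraries labelled T164A were at 9.26, 9.17, 9.18 and 9.17, and no groups overlapped. The rise was 6.89-fold in wild type (2.78, SE 0.13, limma adjusted p = 3.69e-15) and 10.9-fold in T164A (3.44, SE 0.15, limma adjusted p = 7.98e-17). The mu-class genes are close relatives, and how reads shared among them were counted is not stated. GSTP1, the pi-class enzyme typical of basal prostate epithelium, fell by 0.72 in wild type (difference -0.72, SE 0.08), from 12.81 to 13.19 in vector to 12.08 to 12.55 in wild type. It fell by 0.25 in T164A (difference -0.25, SE 0.09), a call lost without T164A replicate 93 (-0.18, limma adjusted p = 0.0895) and without vector replicates 1, 2 and 5 (-0.11, limma adjusted p = 0.358). Microsomal MGST1 fell in T164A (-0.93, SE 0.06) and GSTO1, the omega-class enzyme, rose there (0.88, SE 0.07). Neither passed the test in wild type (0.08 and -0.03).

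Glutathione synthesis changed in 1 subunit of its rate-limiting ligase and not detectably in the other. GCLM, the modifier subunit, rose by 0.67 in wild type (SE 0.09, limma adjusted p = 1.48e-06) and by 1.14 in T164A (SE 0.10, limma adjusted p = 3.26e-10). GCLC, the catalytic subunit, was at 10.89 ± 0.29 (n = 6), 10.76 ± 0.11 (n = 6) and 10.70 ± 0.16 (n = 4), and its differences of -0.14 and -0.20 did not pass the test (limma adjusted p = 0.27 and 0.114). The vector libraries themselves were spread for GCLC, with replicates 1 and 2 at a mean of 11.25 and replicates 3, 4 and 6 at 10.74. The T164A difference passed the test without vector replicate 4 or 5 (-0.25 each), without T164A replicate 93 (-0.27) and without vector replicates 3, 4 and 6 (-0.35), and without these 3 the wild-type difference did so too (-0.29). Within libraries, GCLM minus GCLC rose from -2.88 to -2.42 in vector to -2.21 to -1.66 in wild type and -1.38 to -1.32 in T164A. These changes of 0.81 and 1.34 had exact permutation p-values of 0.00216 and 0.00952 (adjusted 0.00974 and 0.0107).

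SLC7A11, the cystine importer that supplies glutathione synthesis, was at 11.91 to 12.20 in vector and 12.06 to 12.24 in wild type. It fell in T164A, to between 10.91 and 11.49 (difference -0.88, SE 0.08, limma adjusted p = 2.43e-10), and all 4 libraries lay below the other groups. GSS, the enzyme of the second synthesis step, fell by 0.16 in T164A (difference -0.16, SE 0.05), a call lost without T164A replicate 93 (-0.10, limma adjusted p = 0.0719), without vector replicates 1, 2 and 5 (-0.15, limma adjusted p = 0.0572) and with close libraries averaged (-0.22, limma adjusted p = 0.111). In wild type its difference was -0.11 (limma adjusted p = 0.0596), past the test without vector replicate 3 (-0.13) or T164A replicate 93 (-0.11). GSR, the reductase that recharges glutathione, rose more in wild type (0.78, SE 0.06) than in T164A (0.32, SE 0.07). Wild type exceeded T164A by 0.46 (SE 0.07, limma adjusted p = 8.29e-07), while the T164A rise was lost with close libraries averaged (0.27, limma adjusted p = 0.0552).

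The glutaredoxins reduce protein-glutathione disulfides. GLRX was at 6.82 to 7.33 in vector (median 7.26) and 6.69 to 6.96 in wild type (median 6.78), with an overlap through vector replicate 5. In T164A it was higher, at 7.95, 7.85, 7.70 and 8.02. GLRX fell by 0.40 in wild type (difference -0.40, SE 0.10, limma adjusted p = 0.00173) and rose by 0.68 in T164A (SE 0.11, limma adjusted p = 5.94e-06), and wild type lay 1.08 below T164A (difference -1.08, SE 0.11). The wild-type fall was lost with close libraries averaged (-0.26, limma adjusted p = 0.384) and without vector replicates 3, 4 and 6 (-0.32, limma adjusted p = 0.0506). Mitochondrial GLRX2 fell by 0.23 in wild type (difference -0.23, SE 0.09, limma adjusted p = 0.0375). That call was lost without vector replicate 1, 2 or 6 or wild-type replicate 14, 15, 16 or 17 (limma adjusted p = 0.0501 to 0.111) and without vector replicates 1, 2 and 5 (-0.12, limma adjusted p = 0.394).

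In the thioredoxin arm, the mitochondrial pair rose in both groups. TXN2, the mitochondrial thioredoxin, was at 8.39 to 8.81 in vector (median 8.67) and 9.14 to 9.69 in wild type (median 9.51), and at 10.67, 10.67, 10.46 and 10.67 in the libraries labelled T164A. It rose 1.78-fold (0.84, SE 0.08, limma adjusted p = 7.66e-09) and 3.93-fold (1.97, SE 0.09, limma adjusted p = 6.18e-16). No groups overlapped. TXNRD2, its reductase, was at 7.66 to 8.06 in vector (median 8.02) and 8.79 to 9.40 in wild type (median 9.26). The libraries labelled T164A were at 9.52, 9.52, 9.08 and 9.55, overlapping wild type through replicate 93. TXNRD2 rose by 1.24 (SE 0.10, limma adjusted p = 9.63e-11) and 1.45 (SE 0.11, limma adjusted p = 6.12e-12). Wild type and T164A differed by -0.22 (limma adjusted p = 0.0885), and by -0.33 without T164A replicate 93 (limma adjusted p = 0.00808).

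The cytosolic genes of the arm did not move together. TXN, the cytosolic thioredoxin, rose by 1.04 in T164A (SE 0.06, limma adjusted p = 4.23e-14), from 10.95 to 11.14 in vector to 12.03 to 12.19. In wild type its difference was -0.12 (limma adjusted p = 0.0775), which passed the test without wild-type replicate 13 (-0.15) or T164A replicate 93 (-0.12). TXNRD1, its reductase and a classical NRF2 target, rose by 0.68 in wild type (SE 0.07, limma adjusted p = 2.09e-08) and by 0.29 in T164A (SE 0.08, limma adjusted p = 0.00293). The T164A rise was lost with close libraries averaged (0.30, limma adjusted p = 0.0557) and without vector replicates 3, 4 and 6 (0.15, limma adjusted p = 0.128). Within libraries, TXNRD1 minus TXN rose by 0.80 in wild type and fell by 0.75 in T164A (change -0.75; exact permutation p = 0.00216 and 0.00952, adjusted 0.00974 and 0.0107).

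TXNIP, which binds and inhibits thioredoxin, fell the most of all members in T164A. It was at 14.71 to 14.84 in vector (median 14.78) and 14.45 to 14.63 in wild type (median 14.49), and at 12.81, 13.02, 12.97 and 12.85 in the libraries labelled T164A. The T164A libraries lay far below both other groups, with a fall (difference -1.87, SE 0.06, limma adjusted p = 5.61e-19). In wild type it fell by 0.27 (difference -0.27, SE 0.06, limma adjusted p = 0.000245), a fall that turned to a difference of 0.09 under quantile normalization and was lost with close libraries averaged (-0.26, limma adjusted p = 0.2). Within libraries, TXNIP minus TXN was at 3.64 to 3.86 in vector and 0.78 to 0.99 in T164A (change -2.91, exact permutation p = 0.00952, adjusted 0.0107). In wild type the change was -0.15 (exact permutation p = 0.0303, adjusted 0.0321), and it was 0.14 under quantile normalization. Without 1 library (vector replicate 1, 2 or 6, or wild-type replicate 13, 15, 17 or 18) the change of -0.14 to -0.13 did not pass the test (exact permutation adjusted p = 0.055 to 0.0642). QSOX1, which forms disulfides in the secretory pathway, fell in T164A (-0.50, SE 0.07, limma adjusted p = 6.32e-07). In wild type its difference was 0.13 (limma adjusted p = 0.0965), past the test without wild-type replicate 14 (0.16) or T164A replicate 93 (0.13).

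**Figure D3:**
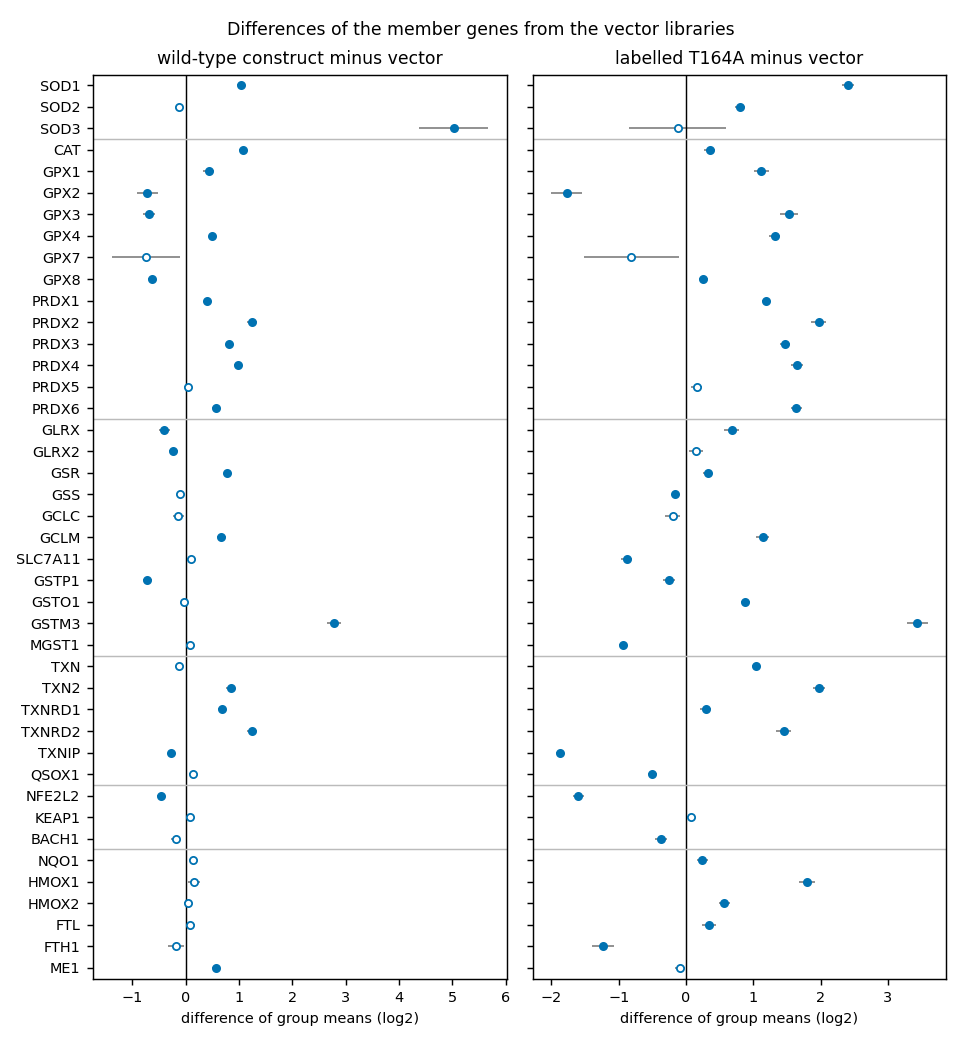
Difference of group means (log2) from the 6 vector libraries for 42 members in wild type (left) and in the libraries labelled T164A (right), with bars of 1 limma SE; filled points have an adjusted p below 0.05 and horizontal lines separate the roles. In T164A most peroxidases lie between 1 and 2, against 0.40 to 1.24 for those that rose in wild type. The point of SOD3 in wild type is the fitted difference, while its mean there lies 2.94 above the extrapolated floor.

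Among the remaining NRF2-linked genes, HMOX1, the inducible heme oxygenase that BACH1 represses, was at 6.14 to 6.59 in vector (median 6.37) and 6.16 to 6.84 in wild type (median 6.55). The libraries labelled T164A were at 8.22, 8.17, 8.05 and 8.25, above every other library. The rise in T164A was 3.49-fold (1.80, SE 0.12, limma adjusted p = 1.09e-12), and the wild-type difference of 0.16 did not pass the test (SE 0.11, limma adjusted p = 0.26). HMOX2, the constitutive form, rose in T164A by 0.57 (SE 0.08), with 215 of its 3194 exon bases shared with NMRAL1 on the other strand. ME1, the cytosolic malic enzyme that makes NADPH, changed in the other group. It was at 9.36 to 9.53 in vector (median 9.45) and 9.82 to 10.15 in wild type (median 10.03), and at 9.41, 9.28, 9.52 and 9.24 in the libraries labelled T164A. ME1 rose by 0.56 in wild type (SE 0.06, limma adjusted p = 5.14e-08), and wild type exceeded T164A by 0.64 (SE 0.07, limma adjusted p = 8.53e-09).

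NQO1, a quinone reductase widely used as a readout of NRF2, changed little. It was at 9.83 ± 0.17 (n = 6), 9.96 ± 0.09 (n = 6) and 10.07 ± 0.16 (n = 4), and its wild-type difference of 0.13 did not pass the test (limma adjusted p = 0.151), though it did with array weights and without vector replicates 1, 2 and 5 (0.28, limma adjusted p = 0.00491). The rise of 0.24 in T164A (limma adjusted p = 0.0118) was lost with quantile normalization, without T164A replicate 93 (0.19, limma adjusted p = 0.0532), without vector replicates 3, 4 and 6 (0.09, limma adjusted p = 0.363) and with close libraries averaged (0.26, limma adjusted p = 0.0877).

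The chains of ferritin, which stores iron, parted in T164A. FTH1, the heavy chain, fell by 1.23 (difference -1.23, SE 0.16, limma adjusted p = 2.61e-07), from 11.21 to 12.05 in vector to 9.89 to 10.59. FTL, the light chain, rose by 0.34 (SE 0.10, limma adjusted p = 0.00423), but not with close libraries averaged (0.18, limma adjusted p = 0.32) or without vector replicates 3, 4 and 6 (0.10, limma adjusted p = 0.307). FTH1 minus FTL fell from 0.17 to 0.52 in vector to between -1.51 and -1.07 in T164A (change -1.57, exact permutation p = 0.00952, adjusted 0.0107). In wild type neither chain passed the test, and the change of their difference was -0.27 (exact permutation p = 0.152) but -0.39 without wild-type replicate 14 (exact permutation adjusted p = 0.0159). Without vector replicates 3, 4 and 6 the FTH1 difference in wild type was -0.46 (limma adjusted p = 0.0265), and without 1, 2 and 5 that of FTL was 0.33 (limma adjusted p = 0.00111). In wild type FTL was 0.25 lower than in T164A (difference -0.25, limma adjusted p = 0.0348), a call lost without wild-type replicate 14 or 16 or T164A replicate 91, 92 or 94 (limma adjusted p = 0.0522 to 0.114). It was also lost with close libraries averaged (-0.26, limma adjusted p = 0.19), with quantile normalization, with values raised to the floor and without a variance trend. Ferritin genes have processed copies in the genome, 916 of 1617 exon bases of FTH1 overlap BEST1 on the other strand, and the counting of such reads is not stated, so their values are uncertain.

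**Figure D4:**
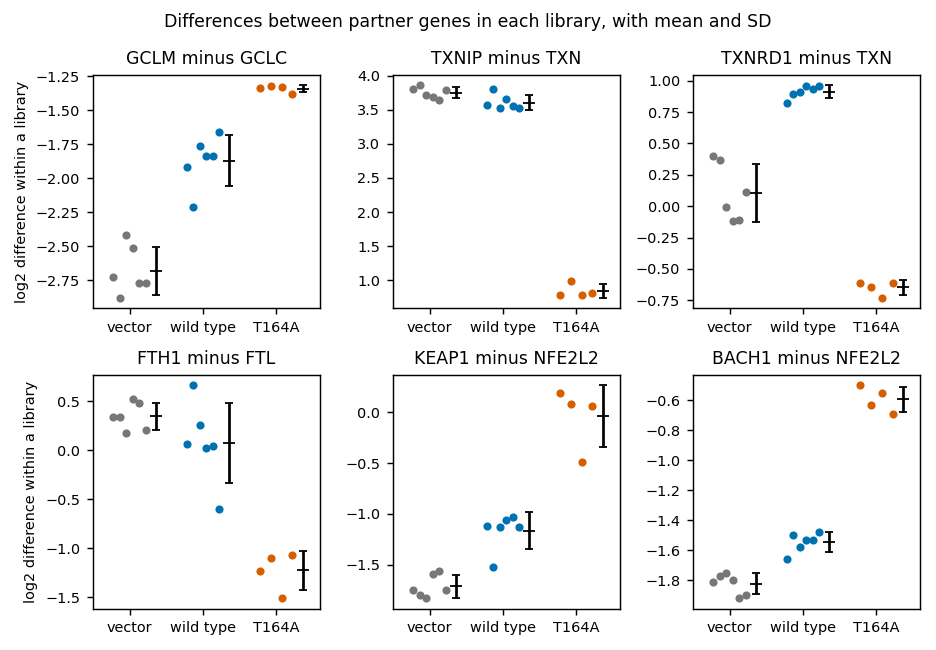
Difference of deposited log2 values between 2 partner genes within each library (points), with mean and SD of the group (bars), for 6 pairs in 6 vector, 6 wild-type and 4 T164A libraries; axes do not start at 0. GCLM minus GCLC and KEAP1 minus NFE2L2 climb from vector to wild type to T164A, TXNIP minus TXN falls to 0.78 to 0.99 in T164A, and TXNRD1 minus TXN is highest in wild type and lowest in T164A.

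The lists of other pathway genes that follow are set beside the shares of symbols with a mean of 6 or more. These were 27.6% higher and 38.7% lower in wild type and 47.2% and 36.6% in T164A. Some lists hold many genes of a lower mean, for which that background is too high. Only 7 of 15 oxidant-producing, 8 of 11 iron and 21 of 28 detoxification genes reach a mean of 6. Over all symbols the shares were 21% and 24.5% in wild type and 37.1% and 27.2% in T164A. A list of 12 genes outside the members held protein partners of NRF2 and the related factors NFE2L1 and BACH2. Of these, 1 rose and 8 fell in wild type (8.33% and 66.7%), and 3 rose and 6 fell in T164A (25% and 50%). The small MAF partner MAFG fell in wild type and T164A (-0.48, SE 0.06, and -0.76, SE 0.06), as did MAFK (-0.17, SE 0.07, and -1.79, SE 0.08). NFE2L1, a relative of NRF2, fell in both (-0.16, SE 0.07, and -1.18, SE 0.07). The acetyltransferase EP300 rose in both (0.38, SE 0.04, and 1.18, SE 0.05), whereas its relative CREBBP fell in wild type (-0.28, SE 0.06). BACH2, a relative of BACH1, was lower in wild type than in T164A (-2.71, SE 0.15).

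NADPH supply was described by 12 genes, of which 6 rose and 4 fell in wild type (50% and 33.3%) and 8 rose and 2 fell in T164A (66.7% and 16.7%). The malic enzyme ME2 rose in both (0.69, SE 0.07, and 1.50, SE 0.08). Cytosolic IDH1 rose in wild type (0.74, SE 0.06), and mitochondrial NNT fell there (-0.54, SE 0.08). In T164A the pentose phosphate genes PGD (1.07, SE 0.06) and RPIA (1.16, SE 0.08) rose, and PGD also rose in wild type (0.34, SE 0.06). IDH1 was 1.23 higher in wild type than in T164A (SE 0.07), and NNT was lower (-1.09, SE 0.09), as was RPIA (-1.01, SE 0.08).

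A list of 28 other NRF2-linked detoxification genes had 9 rises and 9 falls in wild type (32.1% each) and 12 rises and 11 falls in T164A (42.9% and 39.3%), near the background in both. PIR rose in wild type and T164A (1.52, SE 0.09, and 0.92, SE 0.10), as did UGDH, which makes UDP-glucuronate (1.0, SE 0.08, and 1.26, SE 0.09). Aldose reductase AKR1B1 fell in wild type (-0.71, SE 0.08) and rose in T164A (3.63, SE 0.09), and GSTM2, another mu-class transferase, rose in T164A (3.56, SE 0.21). AKR1C1, widely used as an NRF2 target, fell in wild type and T164A (-0.47, SE 0.09, and -2.23, SE 0.10). The transporter ABCC3 was lower in wild type than in T164A (-1.31, SE 0.07).

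Of 15 genes of oxidant-producing enzymes, 1 rose and 7 fell in wild type (6.67% and 46.7%), and 5 rose and 5 fell in T164A (33.3% each). The rises in T164A include NOX4, whose means were below the floor in both groups (0.28 in vector, 1.81 in T164A). The dual oxidase DUOX1 fell in both (-0.54, SE 0.08, and -1.73, SE 0.08), as did its maturation factor DUOXA1 (-0.69, SE 0.08, and -1.73, SE 0.09). DUOX2 fell in both as well (-0.60, SE 0.09, and -2.92, SE 0.10). MAOA, a monoamine oxidase that releases hydrogen peroxide, rose in wild type (2.96, SE 0.10) and was the single rise there. CYBA, a subunit of NADPH oxidases, was lower in wild type than in T164A (-1.88, SE 0.11).

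GPX1 to GPX4 and the thioredoxin reductases contain selenocysteine. Of 15 measured genes for selenoprotein synthesis and other selenoproteins (20 names, older and newer symbols counted apart), 7 rose and 3 fell in wild type (46.7% and 20%) and 10 rose and 3 fell in T164A (66.7% and 20%). SEPP1, the selenium carrier selenoprotein P, rose in wild type and T164A (3.24, SE 0.17, and 3.07, SE 0.19), as did SELM (2.70, SE 0.16, and 2.76, SE 0.18) and SELK (1.15, SE 0.09, and 2.30, SE 0.10). SEPN1 (0.21, SE 0.08, and 1.53, SE 0.09) and the third reductase TXNRD3 (1.22, SE 0.10, and 2.03, SE 0.11) also rose in both. SEPHS1 was lower in wild type than in T164A (-0.65, SE 0.06).

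Of 11 genes of iron uptake and sensing, which bear on ferritin, 6 rose and 2 fell in wild type (54.5% and 18.2%) and 5 rose and 2 fell in T164A (45.5% and 18.2%). The rises in wild type include HEPH, whose means were below the floor in both groups (0.25 in vector, 2.29 in wild type). ACO1, whose protein binds iron-responsive elements when iron is low, rose in both (0.80, SE 0.06, and 1.51, SE 0.07). IREB2, the other such protein, also rose in both (0.17, SE 0.06, and 0.65, SE 0.06). The transferrin receptor TFRC fell in both (-0.22, SE 0.05, and -0.89, SE 0.06). FBXL5 rose in both (0.77, SE 0.07, and 0.45, SE 0.08). The iron transporter SLC11A2 rose in wild type (0.29, SE 0.05) and fell in T164A (-0.25, SE 0.06). All differences named in these lists passed the test at a limma adjusted p below 0.05.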

How the data were processed

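Poly-A RNA was sequenced after TruSeq preparation, per the labels' protocols. Cufflinks 2.0.2, CASAVA 1.8.2, DESeq, TopHat2 2.0.4 and the build GRCh37 appear in the submitters' processing notes, without roles. The authors deposited log2 values by a transformation not given in the sources used here. Of these values, 100% lie on steps of whole reads above 11.5 (tolerance 0.05, after an offset of 1.89), but 8.29% to 11.4% between 10 and 10.5, so count tests were not used. The 21594 rows hold 20166 symbols. Of 304 symbols on several rows (none a member) the row with the highest mean was kept.

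Libraries were grouped by label as vector (6), wild type (6) and T164A (4). All 16 entered 1 limma 3.58.1 fit in R 4.3.3 (empirical Bayes with variance trend, 13 residual degrees of freedom, no filter on low values), tested two-sided with Benjamini-Hochberg adjustment and a threshold of 0.05. The labels give no batch and do not state separate cultures, so p-values reflect only library-to-library spread, possibly technical. Libraries that lie close together may share a culture, and an alternative averages each such set to 1 value: vector replicates 1 and 2, vector 3, 4 and 6, wild type 13 and 15 to 18, and T164A 91, 92 and 94. It leaves 3 vector values and 2 values in each other group, so wild-type replicate 14 and T164A replicate 93 are each 1 of the 2 values of their group. The members, gene lists and tests were chosen with earlier results of these data known. Every member may be named. Values by library (for groups of 6, the lowest, median and highest) are given for NFE2L2, KEAP1, BACH1, CAT and the largest called change of each role and comparison. Other lists show up to 3 genes per comparison with the smallest p.

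On simulated data for wild type against vector (20166 genes), changes of 0.25, 0.5, 1 and 2 (log2) were recovered for 46%, 78%, 98% and 100% of changed genes, with 15 false calls. The simulated noise was independent between libraries, and the changed genes had a vector mean above 6. These rates therefore do not cover sets of libraries that lie close together or genes of lower level. Promoter windows are RefSeq's (GRCh38.p14), and exon overlaps come from GENCODE annotation of GRCh38, not the authors' build. The last bases of a window lay in a transcript of the same orientation for 28 of 33 genes. Python 3.11.15, scipy 1.17.1 and matplotlib 3.10.9 were used. Alternatives were quantile normalization, a mean of 4 or more, values raised to the floor, a pseudocount of 16, only the groups compared, no variance trend, array weights, a minimum fold of 1.2, close libraries or repeated rows averaged, and leaving out libraries. Leaving out vector replicates 1, 2 and 5, or 3, 4 and 6, was added after the data were seen. Some items are not reported here.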

Additional observations from a re-analysis of the deposited data

Results flagged for a closer look

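In 23 of 126 sets of values (42 members in 3 groups, 18.3%) 1 library lay far from the others of its group by Dixon's criterion, which chance meets in about 1 of 20 sets. Members share libraries, so these are not independent.

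Wild-type replicate 14 accounts for 10 of the 23. It was the lowest of its group for SOD1 (10.20, others from 10.61 to 10.78), GPX4 (10.09, others from 10.42 to 10.54), PRDX4 (9.92), PRDX5 (11.03), PRDX6 (11.15), TXNRD2 (8.79), FTL (11.15) and QSOX1 (11.34). It was the highest for GCLC (10.96) and BACH1 (10.11). The same library had the lowest luminal marker sum of its group, 15.80 against 16.46 or more.

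T164A replicate 93 accounts for 7. It was the lowest for TXN2 (10.46, others 10.67), TXNRD2 (9.08, others from 9.52 to 9.55), GSS (10.93), GSTP1 (12.55), FTH1 (9.89) and QSOX1 (10.58), and the highest for TXN (12.19). The other T164A values were GPX7 in replicate 94 (1.73, below the floor), GSTO1 in replicate 92 (10.60) and GSTM3 in replicate 91 (9.26, others from 9.17 to 9.18).

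In vector, replicate 5 was the highest for GPX2 (5.80) and the lowest for GLRX (6.82), and replicate 2 was the lowest for TXNRD2 (7.66).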

How the results depend on the processing

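Apart from a minimum fold of 1.2, all alternatives kept 17 of 25 member calls in wild type against vector, 27 of 35 in T164A against vector and 30 of 34 between wild type and T164A. The number of members lower in wild type than in vector was 8, but 4 with a minimum fold of 1.2 and 3 with close libraries averaged. The median member difference of T164A against vector was 0.41 without vector replicates 1, 2 and 5 and 0.22 without 3, 4 and 6. That of wild type against T164A was -0.20 with quantile normalization and -0.42 for a mean of 4 or more. SOD3 and GPX7 were not tested under that filter. For these changes the cause was not tested. Leaving out 1 library gave 17 to 18 rises and 7 to 11 falls in wild type, 25 to 26 and 9 to 11 in T164A, and 12 to 13 and 21 to 24 between wild type and T164A. Without wild-type replicate 14 there were 18 rises and 8 falls in wild type, and without T164A replicate 93 there were 25 and 9 in T164A. Calls also lost and not named above were GLRX2 in wild type (no variance trend, close libraries averaged), GSTP1 in T164A (no variance trend, array weights), and, in wild type against T164A, GLRX2 (quantile normalization), GSTP1 and TXNRD1 (close libraries averaged). A minimum fold of 1.2 ended 6, 9 and 4 calls. Calls gained with array weights were BACH1, GSS, NQO1 and QSOX1 in wild type, GCLC, KEAP1 and PRDX5 in T164A, and BACH1, PRDX5 and TXNRD2 between them. In wild type, BACH1 and GSS were also gained with a mean of 4 or more and with only the groups compared (there QSOX1 too), and GSS with raised low values and a pseudocount of 16. Quantile normalization gained MGST1, QSOX1 and SLC7A11, GCLC and ME1, and BACH1, GSS and KEAP1 in the same order. No paired analysis was possible because the groups share no replicate numbers.

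With 1 exception, direction changed in differences that had not passed the test. The exception was TXNIP in wild type against vector, at 0.09 with quantile normalization (TXNIP minus TXN 0.14). Also with quantile normalization, HMOX1 was at -0.13 in wild type, GLRX2 at -0.18 and KEAP1 at -0.03 in T164A against vector, and NQO1 at 0.03 in wild type against T164A. With close libraries averaged, the wild-type differences were -0.11 for PRDX5, -0.01 for HMOX1, -0.06 for HMOX2 and -0.08 for FTL, and KEAP1 was at -0.01 in T164A against vector. Without vector replicates 3, 4 and 6, wild type differed by -0.05 for PRDX5, -0.01 for NQO1, -0.08 for HMOX2 and -0.15 for FTL. Without 1, 2 and 5 it differed by 0.02 for GCLC, 0.02 for GSTO1 and 0.11 for FTH1, and T164A by 0.27 for SOD3. With array weights, SOD3 was at 0.08 in T164A against vector, and GSS and KEAP1 were at -0.01 each in wild type against T164A. Raising values to the floor put GPX7 at 0.01 in wild type. Leaving out 1 library gave -0.63 to 0.34 for SOD3 in T164A against vector, and -0.36 to 0.50 for GPX7, -0.02 to 0.07 for GSS and -0.05 to 0.05 for KEAP1 in wild type against T164A.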
